A study of Drosophila melanogaster with 16 samples.

Results

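The genes described here are *Pc*, *ph-p*, *ph-d*, *Psc*, *Su(z)2*, *E(z)*, *trx*, *brm* and *ash1*, 9 of the Polycomb and trithorax group genes of *Drosophila*. They were found by symbol in the Ensembl BDGP6 annotation, and all 9 were matched, out of 13986 protein-coding genes and 24254 annotated features. For each gene, every peak of Psi, RNA Pol or Myc that overlapped it or lay within 1 kb was taken, and such a gene is called bound. Binding was measured by Targeted DamID (TaDa), in which the bacterial methylase Dam is tethered to a chromatin protein and marks the adenine of GATC sites close to where that protein sits. Wing imaginal discs of female larvae, the larval tissue that forms the adult wing, expressed Dam-Psi (3 samples), Dam fused to Polr2F, the RpII18 subunit shared by the nuclear RNA polymerases (3 samples), Dam-Myc (3 samples) or Dam alone (7 samples). Psi is the fly member of the FUBP family of nucleic acid-binding proteins, and Myc is a transcription factor that promotes growth.

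In every sample, including those with Dam alone, the transgene was under *sd*-GAL4 and held off by a temperature-sensitive GAL80 driven by *tub*. The egg lay lasted no more than 4 h at 25°C, 7 days at 18°C followed, and a shift to 29°C for the last 24 h switched the fusions on. Signal therefore came from the disc cells in which *sd*-GAL4 is active, and other disc cells were not profiled. The Psi and RpII18 lines were made for the study by insertion at 1 landing site on chromosome 3. The lists give no expression level, so the tissue label was not checked against marker transcripts. Each list was called by the authors on the average of its 3 samples at an FDR of 1%, which leaves no replicate spread and no read depth, so no difference below was tested. Dam-only sample 1 was the control for 2 of the Psi and 1 of the RNA Pol samples, so these lists are not independent.

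Polycomb group proteins keep developmental genes silent through cell division, whereas trithorax group proteins oppose them and keep the same genes active. Polycomb repressive complex 2 (PRC2) methylates histone H3 on a lysine, and the chromodomain protein of Polycomb repressive complex 1 (PRC1) recognises that mark. In the wing disc the Polycomb system is known for silencing homeotic genes and for restraining growth, and loss of *ph* or of *Psc* with *Su(z)2* causes overgrowth of disc tissue. Among the members, *Pc*, *ph-p*, *ph-d*, *Psc* and *Su(z)2* encode PRC1 subunits or their close paralogues, *E(z)* the PRC2 methyltransferase, *trx* and *ash1* histone methyltransferases of the trithorax group, and *brm* the ATPase of the SWI/SNF remodelling complexes.

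Peaks were found at 3 of the 9 genes, all of them PRC1 genes. Psi peaks lay at *ph-p*, *ph-d* and *Psc*, or 3 of 9 genes, where 7.89% of all protein-coding genes were bound. RNA Pol peaks lay at the same 3 genes, against 13.6% of protein-coding genes. Myc peaks lay at *ph-p* and *ph-d*, or 2 of 9, against 19.1%. Only *ph-p* and *ph-d* of the 9 were bound in all 3 lists, as were 3.68% of protein-coding genes. The other 6 genes, *Pc*, *Su(z)2*, *E(z)*, *trx*, *brm* and *ash1*, had no peak within 1 kb in any list, as was so for 74.4% of protein-coding genes. Each of the 8 peaks at *ph-p*, *ph-d* and *Psc* overlapped the gene itself. Among all bound protein-coding genes, a peak overlapped the gene for 875 of 1104 (Psi), 1555 of 1896 (RNA Pol) and 2091 of 2675 (Myc). The outermost annotated start site lay in a Psi peak at 1 gene, *ph-d* (1.55% of protein-coding genes), in an RNA Pol peak at 1 gene, *ph-p* (6.86%), and in a Myc peak at 1 gene, *ph-d* (9.44%).

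**Figure D1:**
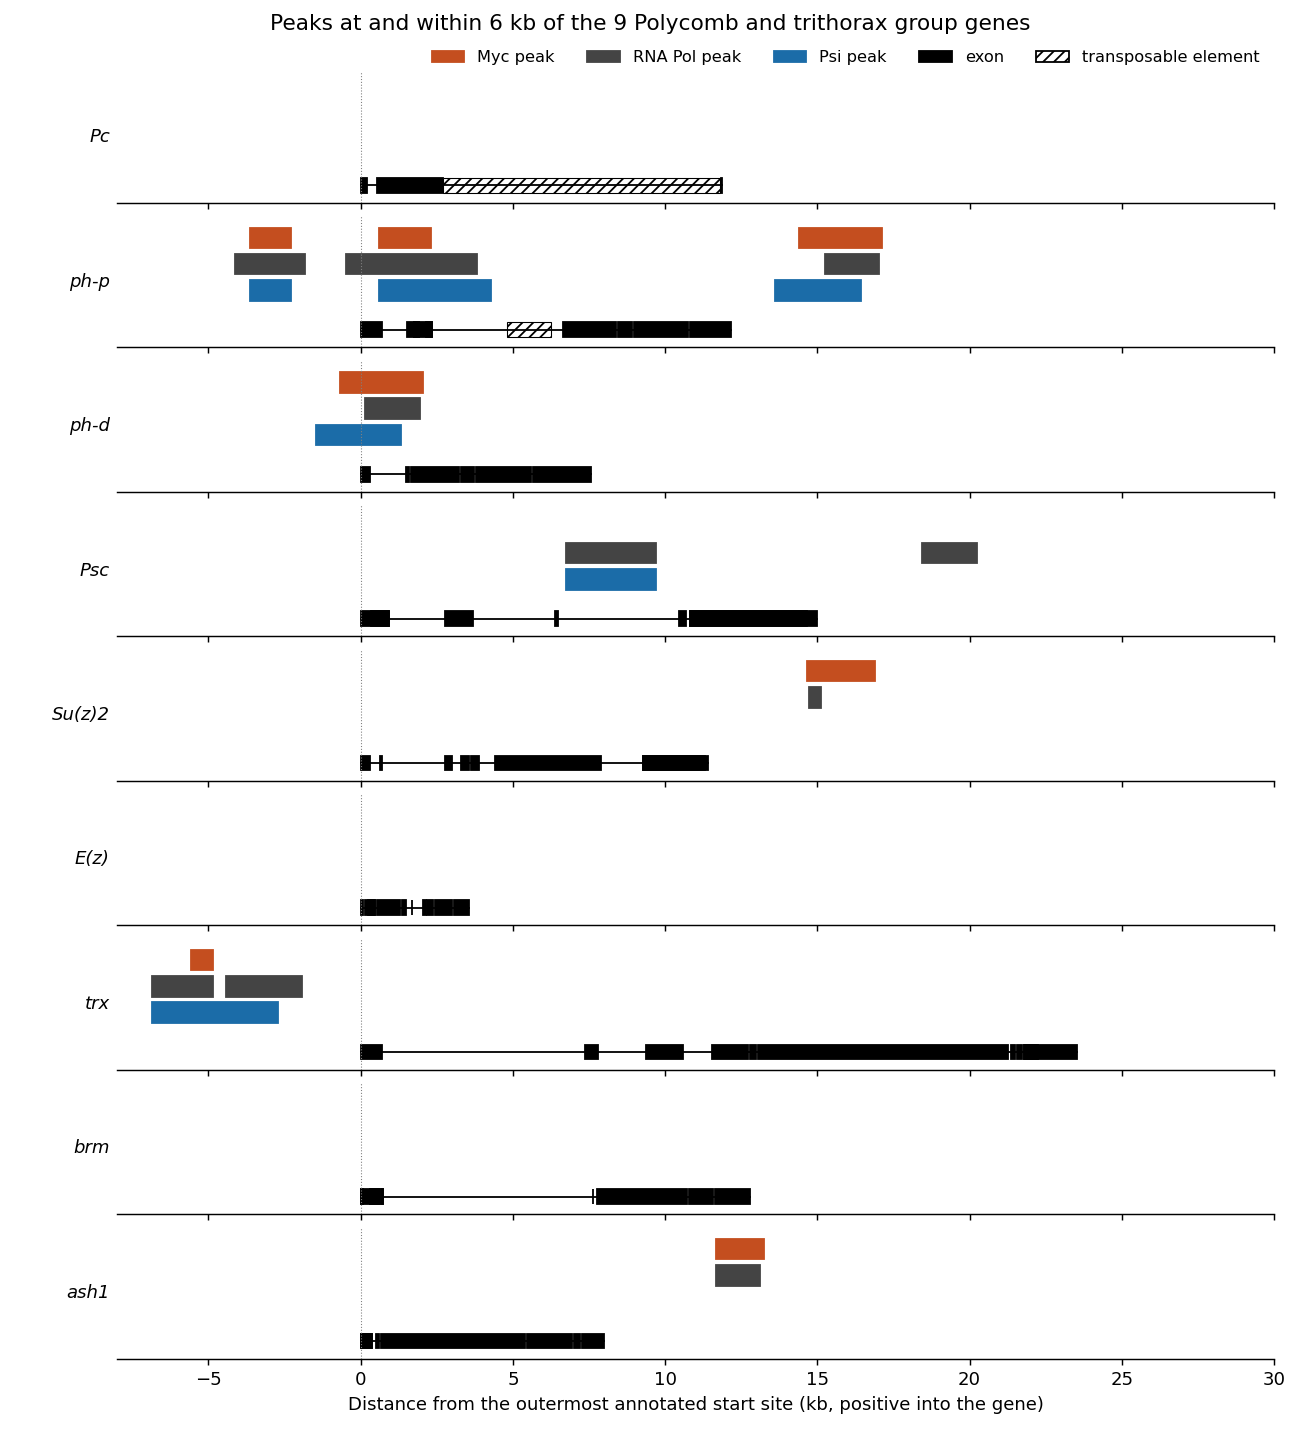
Each row is 1 gene drawn along the distance from its outermost annotated start site (kb, positive into the gene), with exons as black boxes, annotated transposable elements hatched, and peaks of each list within 6 kb as coloured bars. The *ph-p* and *ph-d* peaks lie between 1.464 kb upstream and 4.277 kb downstream of the start site and the *Psc* peaks over an internal intron, while the bars to the right of *ph-p* between 13 and 18 kb are those of *ph-d*.

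*ph-p* and *ph-d* are tandem copies on the X chromosome, and both encode PRC1 subunits with a SAM domain that can polymerise. *ph-p* (FBgn0004861) spans X:2126210-2138371 on the minus strand and is 12.16 kb long, and *ph-d* (FBgn0004860) lies downstream of it at X:2115727-2123286, also on the minus strand, and is 7.56 kb long. The copies share long stretches of sequence, which matters for reads of 50 bases. Between the gene bodies there were 11 identical runs of 50 bp or more, from 50 to 528 bp and 2820 bp in all, and none of them lay within a *ph-p* peak. A further identical stretch of 74 bp lay inside the peaks, and it joins the promoters of the copies. In *ph-d* it ends 156 bp upstream of the outermost start site. In *ph-p* it ends 153 bp upstream of an internal start site that lies 1516 bp downstream of the outermost one. The 250 bases upstream of these start sites are shown because they put the same promoter sequence in the peaks of both genes. The 74 identical bases are in capitals, and the strand is that of transcription (BDGP6, X:2136856-2137105 for *ph-p*, all of it intron, and X:2123287-2123536 for *ph-d*, all of it upstream of the gene).
ph-p: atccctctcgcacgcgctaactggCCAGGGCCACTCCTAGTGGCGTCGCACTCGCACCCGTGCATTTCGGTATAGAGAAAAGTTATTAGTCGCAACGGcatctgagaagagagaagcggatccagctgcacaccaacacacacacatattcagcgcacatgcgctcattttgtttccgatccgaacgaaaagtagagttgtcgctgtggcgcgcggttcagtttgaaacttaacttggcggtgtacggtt
ph-d: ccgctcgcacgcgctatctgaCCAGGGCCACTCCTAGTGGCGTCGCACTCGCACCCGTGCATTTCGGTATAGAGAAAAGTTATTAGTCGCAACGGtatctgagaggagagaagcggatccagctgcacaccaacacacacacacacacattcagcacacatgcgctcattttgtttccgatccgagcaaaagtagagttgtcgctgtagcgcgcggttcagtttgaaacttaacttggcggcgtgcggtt

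Aligned end to end, the 2 windows matched at 235 positions, differed at 11 and had 8 gapped positions, an identity of 95.5% of aligned bases. Each window held 2 GATC sites, where Dam methylates, and 2 matches to GAGAG. The *ph-p* copy lay in the peaks of all 3 lists, and the *ph-d* copy in those of Psi and Myc. The RNA Pol peak of *ph-d* began 154 bp inside the gene and so left this window out. Of the 50-base words in the 6 *ph-p* and *ph-d* peaks, at most 1.48% had an identical copy elsewhere on the chromosome arms, and all of those belonged to the shared stretch. Most of each peak therefore lay on sequence that reads of this length can place.

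The Psi peak of *ph-p* (X:2134094-2137779, 3686 bp over at least 9 GATC fragments) ran from 0.592 to 4.277 kb downstream of the outermost start site. It lay wholly in the gene and covered 30.3% of it, and 73.9% of the peak was intron and 25.1% UTR. Its score was 2.01, with an FDR of 4.64e-12, and it ranked 494 of 1710 Psi peaks. The score comes from the authors' peak caller and its formula is not stated, so it ranks peaks within a list and is not compared between lists.

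The RNA Pol peak of *ph-p* (X:2134550-2138853, 4304 bp) was the one member peak of that list to reach over the outermost start site. It ran from 0.482 kb upstream to 3.821 kb downstream and took in all 3 annotated transcript starts of the gene. Its score of 1.76 (FDR 3.16e-09) ranked 91 of 1568, which placed it above 94.0% of the RNA Pol list and higher in its list than any other member peak. The Myc peak (X:2136046-2137779, 1734 bp) lay between 0.592 and 2.325 kb with a score of 4.00 (FDR 3.14e-07), ranked 247 of 1951. It lay wholly inside both other peaks and ended at the same GATC site as the Psi peak. The 3 peaks thus had these 1734 bp in common, a region of at least 5 GATC fragments with 53.4% UTR and 46.2% intron. It held the internal start sites at 1.516 and 1.749 kb but not the outermost one.

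At *ph-d* the Psi peak (X:2121943-2124750, 2808 bp over at least 5 GATC fragments) straddled the start site. It ran from 1.464 kb upstream to 1.343 kb downstream, with 52.1% of it outside the gene. With a score of 2.21 (FDR 1.36e-06, rank 210 of 1710) it scored highest of the 3 member peaks in the Psi list. The Myc peak (X:2121250-2123976, 2727 bp) also straddled the start site, from 0.690 kb upstream to 2.036 kb downstream, and scored 3.28 (FDR 2.21e-06, rank 719 of 1951). The RNA Pol peak (X:2121350-2123132, 1783 bp) lay wholly in the gene, 0.154 to 1.936 kb downstream, and scored 1.34 (FDR 0.000831, rank 576 of 1568). It was 70.2% intron and 17.6% coding sequence, and it held the second annotated start, 1.494 kb into the gene, which the Psi peak did not reach.

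The overlaps differed between the copies by pair of lists. Psi and RNA Pol peaks shared 1190 bp at *ph-d*, or 42.4% of the Psi peak and 66.7% of the RNA Pol peak. At *ph-p* they shared 3230 bp, or 87.6% and 75.0%. Psi and Myc peaks shared 2034 bp at *ph-d* (72.4% of the Psi peak) and 1734 bp at *ph-p* (47.0%). Myc and RNA Pol peaks shared 1783 bp at *ph-d*, the whole of the RNA Pol peak, and 1734 bp at *ph-p*, or 40.3% of it. The 3 lists overlapped on 1190 bp at *ph-d*, from 0.154 to 1.343 kb into the gene, 87.3% of it intron. This region was more than 1 GATC fragment, the longest in *ph-d* being 1095 bp. A GATC fragment is the smallest unit that DamID can resolve, and the lists give no values per fragment. An order of the 3 proteins within the region therefore cannot be read.

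All 3 lists also had a peak a short way upstream of *ph-p*, over *D2hgdh*, the gene for a D-2-hydroxyglutarate dehydrogenase. The Psi and Myc peaks there had the same edges (X:2140647-2142019, 1373 bp, 2.276 kb from *ph-p*), with scores of 1.47 (rank 1567) and 2.81 (rank 1100). The RNA Pol peak (X:2140209-2142496) began 1.838 kb from *ph-p* and scored 1.17. These peaks were outside the distance of 1 kb and scored below the median of their list, which was 1.84 for Psi, 1.24 for RNA Pol and 2.97 for Myc, whereas all 6 *ph-p* and *ph-d* peaks scored above it.

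*Psc* (FBgn0005624, 2R:12965997-12980994, minus strand, 15.0 kb) encodes the RING finger subunit of PRC1 that compacts nucleosomes. Its Psi and RNA Pol peaks had the same edges (2R:12971292-12974240, 2949 bp over at least 4 GATC fragments). They lay 6.754 to 9.702 kb downstream of the start site, wholly in intron, and covered 19.7% of the gene and none of its 2 transcript starts. Identical edges were found for 84 pairs of peaks, or 4.91% of the Psi list and 5.36% of the RNA Pol list. These are shares of the whole lists, and the share among overlapping peaks was not counted. The scores were low in both lists. The Psi peak scored 1.59 (FDR 0.000278, rank 1330 of 1710) and the RNA Pol peak 1.22 (FDR 0.00029, rank 817 of 1568), each under its list's median. No Myc peak lay within 1 kb, and the nearest was 18.9 kb downstream at *Mdr49*, a multidrug resistance transporter gene. A second RNA Pol peak, of score 1.35, lay 3.452 kb downstream of *Psc*.

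**Figure D2:**
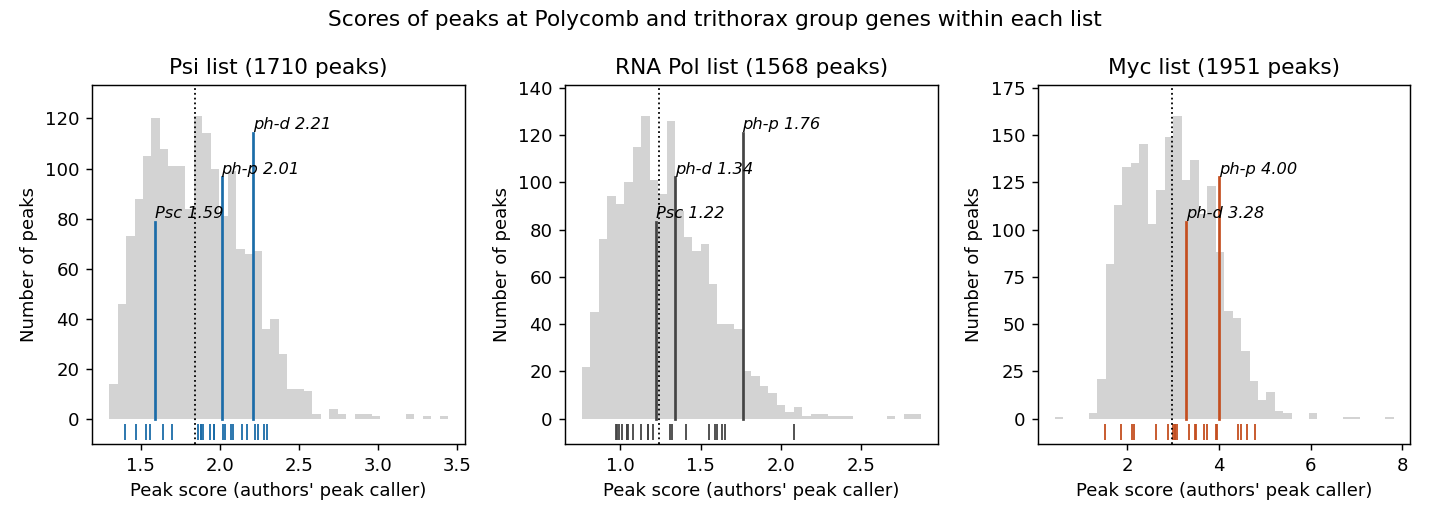
Grey bars show the number of peaks by score in each list, with the median as a dotted line. Tall coloured lines mark the member peaks with their scores, and short ticks under the axis mark peaks at the 52 other Polycomb and trithorax genes. The *ph-p* and *ph-d* peaks sit to the right of the median in every list and the *Psc* peaks to its left.

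*Su(z)2* (FBgn0265623, 2R:12996501-13007911, plus strand) is the paralogue and neighbour of *Psc* and the 2 are transcribed away from each other. It had no peak of any list. The Psi peak nearest to it was that of *Psc*, 22.3 kb away. RNA Pol and Myc had peaks 3.315 and 3.264 kb downstream of its end that overlapped each other, with scores of 0.86 (rank 1502 of 1568) and 2.63 (rank 1216 of 1951), and no annotated feature lay within 1 kb of either. The paralogues therefore differed in these lists, with an intronic Psi and RNA Pol peak at *Psc* and none at *Su(z)2*. A peak missing from a list called at an FDR of 1% does not show that the protein was absent.

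*Pc* (FBgn0003042, 3L:21306138-21318020, minus strand) encodes the chromodomain protein that gave the group its name. Its nearest peaks were 51.7 kb away for Psi, at *Eip78C*, 28.8 kb away for RNA Pol, at *AcCoAS*, and 25.4 kb away for Myc, at *AcCoAS* and *ppl*. Much of the annotated gene is repeated sequence. A *roo* transposable element covers 9101 of its 11883 bp in the reference, in an intron near the 3′ end, and 76.1% of the 50-base words of *Pc* have an identical copy elsewhere on the arms. That leaves 2779 bp of other sequence, and 9 of 33 GATC fragments of which under 50% was repeated. *ph-p* also carries an annotated element, of 1446 bp, and had 30.2% of words copied elsewhere, with 18.8% copied in *ph-d*. For *ph-d* the share copied in *ph-p* was 30.4%. For the other 6 genes it was 0. How reads with several matches were treated is not stated, and whether the flies of the study carry these elements was not tested.

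*E(z)* (FBgn0000629, 3L:10634575-10638130, minus strand), the gene of the PRC2 methyltransferase, stood farther from any RNA Pol or Myc peak than the other 8 members. Its nearest peaks lay 44.3 kb away for Psi (score 1.71, at *simj*), 71.9 kb away for RNA Pol (score 1.15, at *Rbfox1*) and 70.4 kb away for Myc (score 4.38). At 3.556 kb it is also the shortest of the 9 genes, with 17 GATC sites. It had 4.78 GATC sites per kb, and the median over protein-coding genes was 3.88.

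The trithorax group members had no peak within 1 kb, although 2 of the 3 had peaks close outside it. *trx* (FBgn0003862, 3R:14263358-14286903, minus strand) encodes a histone H3 methyltransferase and is the longest of the 9, at 23.55 kb with 80 GATC sites. Peaks of all 3 lists stood upstream of it, over *red* and not over *trx*. The RNA Pol peak began 1.94 kb away (score 1.36), the Psi peak 2.725 kb away (score 1.92, FDR 5.29e-10) and the Myc peak 4.838 kb away (score 3.89, rank 320 of 1951). A second RNA Pol peak of score 0.96 began at the same place as the Myc peak. *trx* would thus count as bound by RNA Pol at a distance of 2 kb, and by all 3 at 5 kb.

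*ash1* (FBgn0005386, 3L:19590773-19598755, minus strand), another histone methyltransferase gene, had an RNA Pol peak 3.705 kb and a Myc peak 3.689 kb past its end. Both lay over *CG9231* and *CG9330*, with scores of 1.01 and 2.95. The nearest Psi peak was 21.0 kb downstream, over *Shal*, a potassium channel gene, and within 1 kb of *mir-9a*. It scored 2.87 and ranked 9 of 1710, so the peak ranked highest in its list among those described around the members lay at another gene. *brm* (FBgn0000212, 3L:15970082-15982869, minus strand) had peaks no nearer than 10.3 kb for RNA Pol, 10.9 kb for Myc and 30.8 kb for Psi. Those of RNA Pol and Myc began at the same GATC site, over *elgi* and *CG17032*. With 69 GATC sites in 12.79 kb, *brm* was the most densely covered of the 9, at 5.40 sites per kb.

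Gene length moved with the calls across the genome, and the members are long genes, with a median of 11883 bp against 2162 bp for protein-coding genes. That median is the annotated length of *Pc*, of which 9101 bp is the *roo* element, so the length group of *Pc* rests on the reference. When protein-coding genes were divided by length into 10 groups of equal size, 2.64% of the shortest group were bound by Psi, 5.58% by RNA Pol and 7.36% by Myc. In the 9th group, from 6.464 to 14.69 kb, which holds *Pc*, *ph-p*, *ph-d*, *Su(z)2*, *brm* and *ash1*, these shares were 15.6%, 26.3% and 30.2%. In the longest group, with *Psc* and *trx*, they were 31.6%, 33.5% and 36.0%. *E(z)* fell in the 7th group, where they were 4.72%, 11.6% and 19.1%. Within the members the length ranges of bound and unbound genes overlapped, and a link with length was not tested. The 3 bound genes measured 7.56 to 15.0 kb and the 6 unbound ones 3.556 to 23.55 kb.

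**Figure D3:**
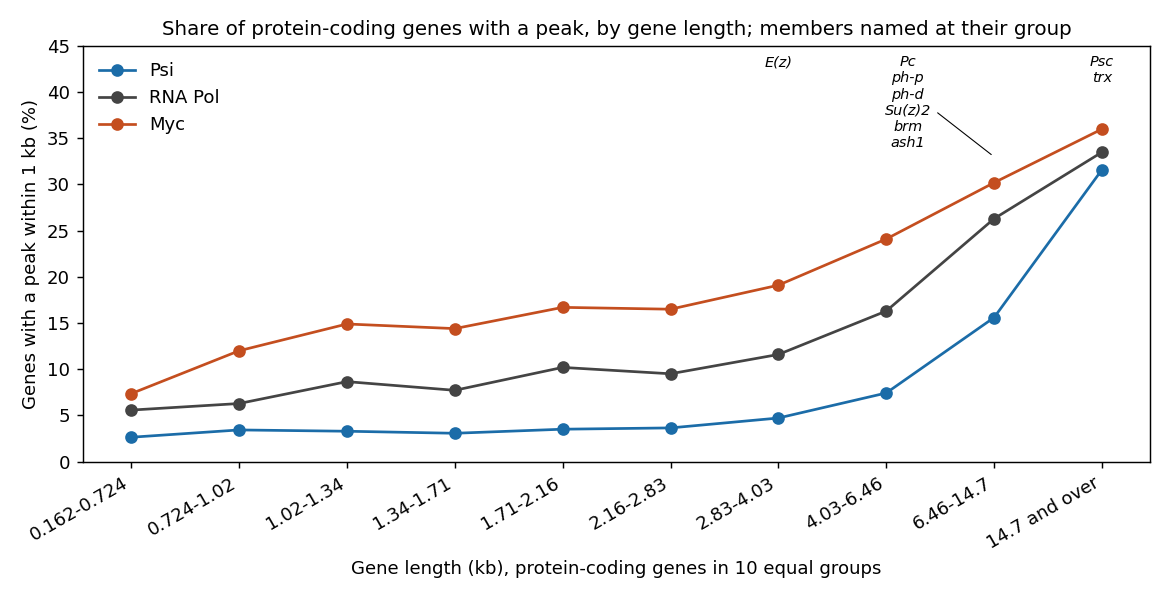
Points show the percentage of protein-coding genes with a peak within 1 kb in each of 10 groups of equal size by gene length (kb), 1 line for each list, and the members are named above their group. The shares for Psi, RNA Pol and Myc are 2.64%, 5.58% and 7.36% in the shortest group and 31.6%, 33.5% and 36.0% in the longest, and 8 of the 9 members fall in the last 2 groups.

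Short sequence matches were counted in the peaks and promoters as a description. GAGAG is bound by GAGA factor and GCCAT is the core of the Pho site, both tied to Polycomb response elements, and CACGTG is the E-box that Myc recognises. Both strands were searched, and overlapping matches were counted. In the 250 bases upstream of the outermost start, GAGAG was found 6 times at *Su(z)2*, 3 times at *ph-p*, 2 times at *ph-d* and 2 times at *E(z)*, and 25.7% of all such windows held it at least once. GCCAT was found once each at *ph-p* and *Psc*, against 35.7% of windows, and CACGTG at none of the 9, against 2.86%. The *ph-p* window is shown because it is the one outermost promoter among the members that lay in an RNA Pol peak (BDGP6, X:2138372-2138621, strand of transcription, matches on either strand in capitals).
ph-p: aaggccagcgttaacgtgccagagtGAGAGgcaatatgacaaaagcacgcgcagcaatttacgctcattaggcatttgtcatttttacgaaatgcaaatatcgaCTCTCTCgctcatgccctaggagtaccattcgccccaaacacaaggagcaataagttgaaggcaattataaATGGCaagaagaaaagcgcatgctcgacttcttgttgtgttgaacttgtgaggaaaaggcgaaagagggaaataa

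Within peaks, GAGAG occurred 2.88 times per kb (Myc peak of *ph-p*) to 4.88 times per kb (RNA Pol peak of *ph-p*) at *ph-p* and *ph-d*. Over the lists it occurred 2.36 (Psi), 2.61 (RNA Pol) and 2.30 (Myc) times per kb. The *Psc* peak held fewer, at 1.70 per kb. GCCAT stood at 1.15 to 2.80 per kb in the member peaks and at 1.96 to 2.20 per kb over the lists. A single CACGTG was found in the member peaks, in coding sequence of *ph-d* 1871 bp downstream of the start (X:2121410-2121415). It lay in the Myc peak and the RNA Pol peak and outside the Psi peak, and it is shown with 12 bases on each side, the E-box in capitals.
ph-d: gctctaaggcagCACGTGggtcagtcggaa

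An E-box was present in 28.9% of Myc peaks, 18.2% of RNA Pol peaks and 15.7% of Psi peaks. The Myc peak of *ph-p* (1734 bp, score 4.00) had none, and that of *ph-d* (2727 bp, score 3.28) had 1. A link between E-box and score was not tested. A match shows only that these letters are present.

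Beside the 9 members, 52 further Polycomb and trithorax genes were counted in the same way. Psi bound 12 of them (23.1%, against 7.89% of all protein-coding genes), RNA Pol 15 (28.8%, against 13.6%) and Myc 19 (36.5%, against 19.1%). Of the 52, 24 (46.2%) had no peak of any list, against 74.4% of protein-coding genes. *psq*, *skd* and *tara*, or 3 of 52 (5.77%), were bound in all 3 lists, against 3.68%. Psi peaks covered the start site of 0 of the 52 genes (1.55% of protein-coding genes), RNA Pol peaks that of 7 (13.5%, against 6.86%) and Myc peaks that of 6 (11.5%, against 9.44%). These genes too were longer where bound, with a median of 9.70 kb for the 28 genes with a peak and 5.16 kb for the 24 without. Not all of these peaks lay on the gene they were assigned to. A peak overlapped the gene itself for 11 of the 12 Psi genes, 13 of the 15 RNA Pol genes and 13 of the 19 Myc genes. Among all protein-coding genes this held for 875 of the 1104 Psi, 1555 of the 1896 RNA Pol and 2091 of the 2675 Myc genes.

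By complex the counts were small, and they stand beside the same 7.89% (Psi), 13.6% (RNA Pol) and 19.1% (Myc) of protein-coding genes. Of 11 further genes grouped with the trithorax COMPASS complexes, which methylate histone H3, Psi bound 2, RNA Pol 1 and Myc 2. The RNA Pol call and 1 of the Myc calls were at *nej*, which encodes the acetyltransferase CBP and not a COMPASS subunit. Of 9 further SWI/SNF (BAP and PBAP) genes, Psi bound 1, RNA Pol 0 and Myc 3. The remaining trithorax genes, which include Mediator, chromatin remodelling and DNA-binding proteins, had 7, 7 and 6 of 12. Among the 7 further PRC2 genes the counts were 1, 3 and 3. Of 2 further PRC1 genes, *Sce*, the RING finger ubiquitin ligase, had no peak and *Kdm2* had an RNA Pol peak over its start (score 1.41). That peak also overlapped *Mst85C*. Of the 3 genes of the Pho complex, Psi bound 0, RNA Pol 1 and Myc 2. Of the 2 genes of the PR-DUB deubiquitinase, the counts were 0, 1 and 1, and of 6 other Polycomb genes they were 1, 1 and 2.

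**Figure D4:**
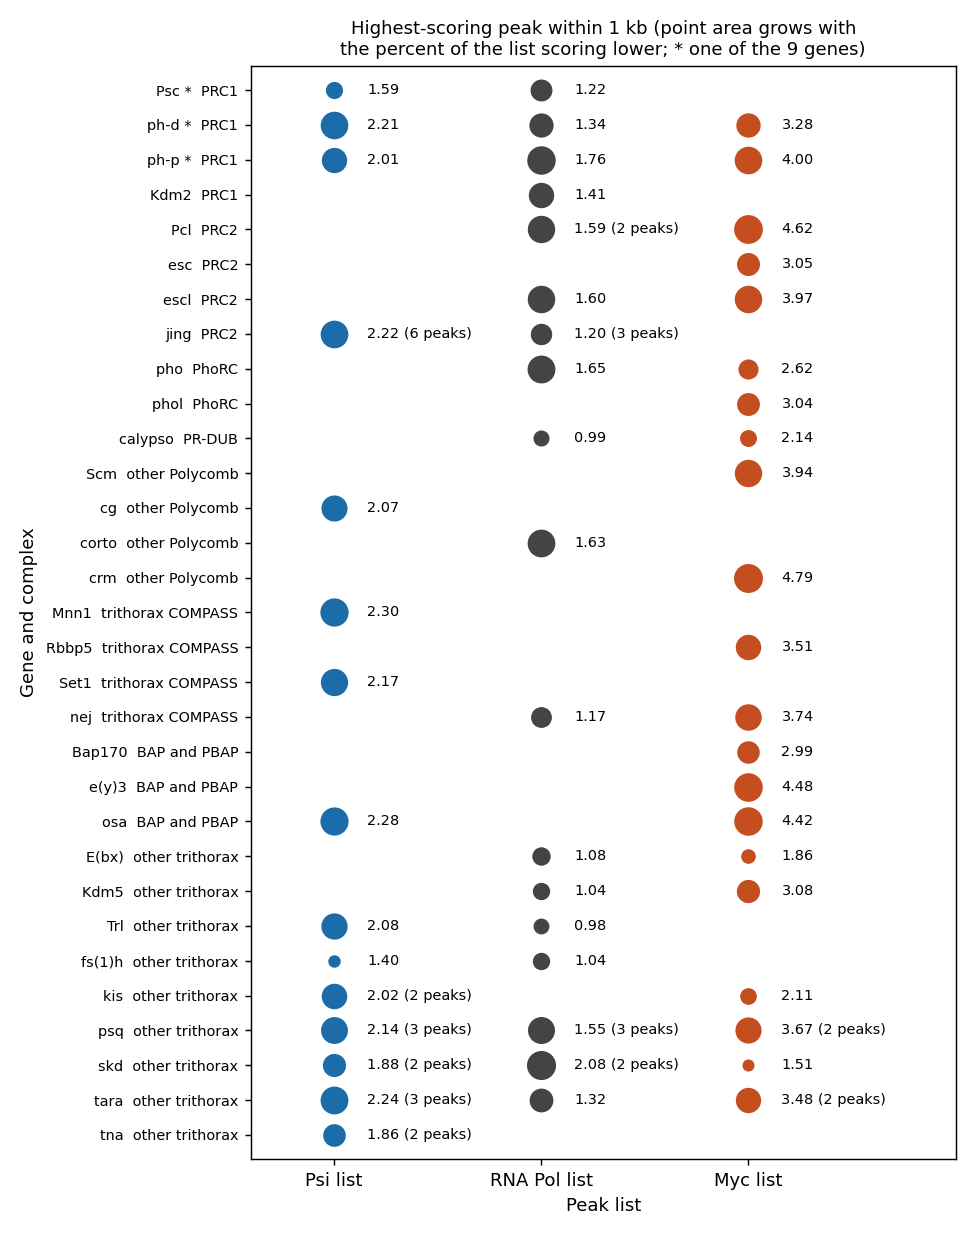
Rows are the 31 Polycomb and trithorax genes with a peak within 1 kb in at least 1 list, ordered by complex, with an asterisk at *ph-p*, *ph-d* and *Psc*, the 3 members among them, and columns are the lists. Points carry the score of the gene's highest-scoring peak, and their area grows with the percentage of that list with a lower score. *ph-p*, *ph-d*, *psq*, *skd* and *tara* have a point in all 3 columns.

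The 3 further genes bound throughout are all long. *psq*, which encodes a BTB DNA-binding protein, spans 59.4 kb and had 3 Psi, 3 RNA Pol and 2 Myc peaks. Its highest-scoring Psi and RNA Pol peaks had the same edges, 22.7 to 26.8 kb from the start, with scores of 2.14 and 1.55, and a Myc peak of score 3.67 began at the same GATC site. *skd*, the Mediator subunit gene for Med13, had the highest-scoring RNA Pol peak of all 61 genes, 0.091 to 2.667 kb from its start (score 2.08, rank 17 of 1568). A Psi peak of score 1.70 covered nearly the same interval, while the Myc peak of *skd* lay 17.6 to 19.4 kb from the start and scored 1.51. *tara*, a SERTAD family gene, had Psi peaks of up to 2.24, an RNA Pol peak of 1.32 and Myc peaks of up to 3.48.

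In the Psi list the highest scores among the further genes were at *Mnn1*, the menin gene (2.30), *osa*, which encodes the ARID subunit of the BAP complex (2.28), *tara* (2.24) and *jing*, a homologue of the PRC2 cofactor AEBP2 (2.22). The *osa* peak was 10522 bp wide, the widest of the whole Psi list, and ran from 4.87 to 15.4 kb inside the gene. The *Mnn1* peak also overlapped *Nuf2* and *Sem1*. *jing*, at 119.8 kb, held 6 Psi peaks and 3 RNA Pol peaks and no Myc peak. After *skd*, the highest RNA Pol scores were at *pho* (1.65), *corto* (1.63) and *escl* (1.60), and each of these peaks covered the gene's start site. The *escl* peak had 305 of its 1694 bp in *escl* and also overlapped *zuc* and *dgt2*. *pho* encodes the zinc finger protein that recruits Polycomb complexes to DNA.

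In the Myc list the highest scores were at *crm* (4.79), *Pcl* (4.62), *e(y)3* (4.48) and *osa* (4.42). The first 3 of these peaks were over other genes. That of *crm* lay outside the gene over *Syx4* and *kirre*, that of *e(y)3* lay outside the gene over *Rcd-1*, and that of *Pcl*, a PRC2 subunit gene, covered 50 bp of *Pcl* and otherwise lay over *pAbp*, the gene for poly(A)-binding protein. The *osa* peak lay inside the gene, within the wide Psi peak. Median scores at the further genes were 1.96 for Psi (24 peaks), 1.17 for RNA Pol (21) and 3.35 for Myc (21), including peaks over other genes. At the members they were 2.01, 1.34 and 3.64, from only 3, 3 and 2 peaks. The list medians were 1.84, 1.24 and 2.97.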

How the data were processed

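TaDa in female wing discs was read as 50 base single-end sequence. The authors aligned reads to BDGP6 with Bowtie2 through damidseq_pipeline and expressed each fusion relative to Dam alone as a normalised log2 ratio for every GATC fragment. The mean of 3 replicates went into find_peaks, with an FDR of 1%. For both tools the version is not given in the sources used here. Lists as deposited give each peak's position, its score and its FDR, both set by the authors. Samples were grouped by their titles. A description label that reads as RNAi or control conflicts with the titles and was not used.

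Genes came from Ensembl release 115 (BDGP6 version 54) and sequence from the same build. Every peak started and ended within 6 bp of a GATC site of that genome. Of 61 symbols, 60 matched directly and *calypso* matched through a RefSeq synonym. A gene was called bound when a peak overlapped it or lay within 1 kb, as in the study. The start site was the outermost annotated one. Words of 50 bases were counted over the chromosome arms on both strands. The upstream windows of *ph-p* and *ph-d* were aligned globally with Biopython 1.88. The code was tested on simulated data with 200 planted genes. Named are all members with every peak within 1 kb, the nearest peak where there was none, and, of the further genes, those bound in all 3 lists and the 4 with the highest score in each. *Sce*, *Kdm2* and *D2hgdh* were added after their values were seen. The members and lists were chosen with earlier results of these data known. Python 3.11.15, numpy 2.4.6, pandas 2.3.3 and matplotlib 3.10.9 were used.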

Additional observations from a re-analysis of the deposited data

How the results depend on the processing

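Calls for the members rested on the distance and the start site chosen and, for *Psc*, on the score. Within 5 kb, RNA Pol bound 6 members and Myc 5, by the addition of *Su(z)2*, *trx* and *ash1*, and Psi bound 4, by the addition of *trx*. With any annotated transcript start, or with a peak within 1 kb of the outermost start, 2 members instead of 1 were called in each list. Of the 13986 protein-coding genes, any transcript start called 328 for Psi, 1105 for RNA Pol and 1502 for Myc. A peak within 1 kb of the outermost start called 507, 1313 and 1866. Members bound at an FDR of 0.1%, or by overlap alone, stayed at 3, 3 and 2 for Psi, RNA Pol and Myc. Overlap alone called 875, 1555 and 2091 of all protein-coding genes. At an FDR of 0.1% the overlaps between lists stayed at 3, 2 and 2. Among the upper 50% of peaks by score, 2 members were bound in each list, without *Psc*. Among the 52 further genes, RNA Pol bound 8 among the upper 50% of peaks by score and Myc 11 at an FDR of 0.1%. Of all protein-coding genes, within 5 kb 1952 were bound by Psi, 3159 by RNA Pol and 4420 by Myc. With the upper 50% of each list by score the counts were 591, 1102 and 1510, and at an FDR of 0.1% they were 823, 1241 and 1764. Start sites of protein-coding genes lay in an RNA Pol peak at 612 genes at an FDR of 0.1%. The cause of these shifts was not tested. Of 75 alternative values, 54 were within 1.5 times the count reported. No replicate could be left out, because the lists were called on averages, and for the same reason precision and depth are unknown. No paired analysis was possible because the lists carry no sample columns.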
